A study of Mus musculus with 5 samples.

Results

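The pyruvate dehydrogenase complex and the enzymes that switch it on and off were followed as 10 genes in mouse cardiac atria of 2 genotypes, MRC2 E990G-het (het) and wild-type (WT). The genes were Pdpr, Pdp1, Pdp2, Pdk1, Pdk2, Pdk4, Pdha1, Pdhb, Dlat and Pdhx, out of 57186 genes in the deposited tables. They were chosen by the measured level of Pdpr, which was higher in het than in WT atria in these same libraries, so the level of Pdpr in the 2 groups is given as a description and carries no test. The other 9 entered as partners of Pdpr in the same pathway. All 10 passed the filter on low counts, as did 16412 genes in all.

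MRC2 takes up collagen at the surface of fibroblasts and related cells, E990G is an amino acid change in it, and the series concerns cardiac fibroblasts and atrial fibrillation. Stranded polyA libraries were made from snap-frozen cardiac atria, without sorting of cells, so every level is an average over cardiomyocytes, fibroblasts, endothelial and other cells. The libraries used here were het replicates 5, 6 and 7 and WT replicates 7 and 8, all labelled batch 2. The design text counts atria of 8 WT and 7 het mice between 4 and 10 months old. In such tissue fewer cells of a type and less RNA per cell cannot be told apart.

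Pyruvate dehydrogenase sits in the mitochondrial matrix and turns pyruvate into acetyl-CoA, the step that commits glucose carbon to the citric acid cycle. Its E1 enzyme is built of alpha and beta chains (Pdha1 and Pdhb), its E2 core carries lipoyl arms (Dlat), and E3-binding protein (Pdhx) docks the E3 enzyme. Pyruvate dehydrogenase kinases phosphorylate the E1 alpha chain and switch the complex off, and pyruvate dehydrogenase phosphatases remove the phosphate and switch it on. The heart, which burns mostly fatty acids, is known for strong Pdk2 and Pdk4 expression, and Pdk4 rises with fasting through PPAR and related factors.

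Total expected counts ran from 17784601 (WT 8) to 28353091 (het 7) per library, so counts of the 10 genes were large, from 290 (Pdpr in WT 8) to 27499 (Pdha1 in het 7). Sex was not among the labels used here. The Y-linked gene Ddx3y had 938 expected counts in WT 7 and 3 or fewer in the other libraries. The part of sex in the group differences was not tested, and values without WT 7 are given where they turn. Mrc2 itself stood at 31.0 to 46.7 CPM (a library-scaled count, with TMM scaling between libraries) in het and at 34.2 and 43.6 CPM in WT. The change of an amino acid is not visible in gene counts, so these values do not check the labels. All 8 atrial cardiomyocyte markers looked up were found in every library, with a summed level of 37275 to 43964 CPM in het and of 56924 and 60625 CPM in WT. Nppa alone held 17767 to 20476 CPM of it in het and 27133 and 33852 CPM in WT. Of the 8 markers, 6 had a log2 fold change below 0 and 2 above. Nppa and Myl4 were called lower and Ryr2 higher in het. Of all tested genes, 2.66% were called lower and 2.99% higher. With each library's trends on transcript length and GC content removed, Nppa, Myl4 and Ryr2 stood at -0.23, -0.35 and 0.39, none called. Among markers of other cells, Adgre1 and Cd163 were called higher in het (macrophage, 2 of 5 called, summed level 178.2 to 251.5 CPM in het and 132 and 138 CPM in WT). Lum was also called higher (fibroblast, 1 of 5 called, 1346 to 1490 CPM against 1315 and 971 CPM). Of the fibroblast genes 3 had a log2 fold change above 0, while Col1a1 (-0.24) and Tcf21 (-0.05) were below it. Most of each fibroblast sum came from Dcn, at 804 to 1008 CPM in het and 826 and 605 CPM in WT. With those length and GC trends removed, Adgre1, Cd163 and Lum stood at 1.03, 0.84 and 0.32, none called. All 5 erythroid genes were higher in het without overlap, none called, where 21.1% of all tested genes were higher without overlap. Their sums were 2590 to 5275 CPM in het and 599 and 2227 CPM in WT. All 5 were highest in het 5 and lowest in WT 7, so they are not 5 separate observations. All 4 smooth muscle genes had a log2 fold change below 0, none called, with sums of 163 to 212 CPM in het and of 298 and 203 CPM in WT. The part of these markers in the results was not tested. The lung epithelial markers Sftpc, Scgb1a1, Sftpb and Ager summed to 0.74 CPM or less, with Sftpc at 0 in every library.

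Promoter sequences are shown for Pdpr and Pdk4, the members that varied most between libraries. They are the 250 bases before the RefSeq start of each gene, on the gene's strand, 5′ to 3′, build GRCm38.p6, at chr8:111094495-111094744 (plus strand) for Pdpr and chr6:5496279-5496528 (minus strand) for Pdk4. This build differs from that of the count tables, so the windows were matched by gene symbol only. Capitals mark the motifs found on either strand.
Pdpr: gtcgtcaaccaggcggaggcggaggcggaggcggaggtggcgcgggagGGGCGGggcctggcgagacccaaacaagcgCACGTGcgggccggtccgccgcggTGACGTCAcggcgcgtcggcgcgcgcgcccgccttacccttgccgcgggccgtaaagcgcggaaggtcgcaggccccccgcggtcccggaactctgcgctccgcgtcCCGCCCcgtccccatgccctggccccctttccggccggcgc
Pdk4: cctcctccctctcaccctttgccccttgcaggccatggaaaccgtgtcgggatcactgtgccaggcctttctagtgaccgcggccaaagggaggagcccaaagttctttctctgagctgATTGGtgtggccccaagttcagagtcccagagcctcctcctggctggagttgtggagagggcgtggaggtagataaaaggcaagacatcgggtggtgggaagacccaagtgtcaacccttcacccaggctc

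The Pdpr window held 43 CpG dinucleotides and 78.4% G and C, with 99.3% of 32851 RefSeq promoter windows holding fewer CpG. The Pdk4 window held 6 CpG, the median of all windows, and 58.8% G and C. In the Pdpr window lay GC boxes (GGGCGG, in 32.7% of all windows), an E-box (CACGTG, in 6.02%) and a cyclic AMP response element (TGACGTCA, in 1.55%). The Pdk4 window held a CCAAT box (CCAAT, in 33.8% of windows). The nuclear receptor half-site AGGTCA (in 14% of windows) and the forkhead site GTAAACA (in 3.17%) were not among the letters of either window, nor was TATAAA (in 12.4%). Of the other members, Pdp2 and Pdk2 also held CACGTG, and 9 of the 10 genes had a window in the table, all but Pdp1.

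Pdpr encodes the regulatory subunit of pyruvate dehydrogenase phosphatase, which binds the catalytic subunit and lowers its sensitivity to magnesium. It stood at 49.0, 52.3 and 48.6 CPM in het 5, 6 and 7, and at 26.1 and 16.9 CPM in WT 7 and 8. The het libraries lay close together and above both WT libraries, while the WT libraries differed from each other by more than the het libraries did. The het mean was 50.0 ± 2.1 CPM (SD, n = 3). The WT mean was 21.5 ± 6.5 CPM (SD, n = 2), and edgeR gave a log2 fold change of 1.21 (SE 0.17). Without WT 8 this value was 0.95 and without WT 7 it was 1.56, in fits that assume the remaining WT library to vary like the het libraries. After correction for each library's trends on transcript length and GC content, called length and GC correction from here, it was 0.99 (SE 0.16).

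**Figure D1:**
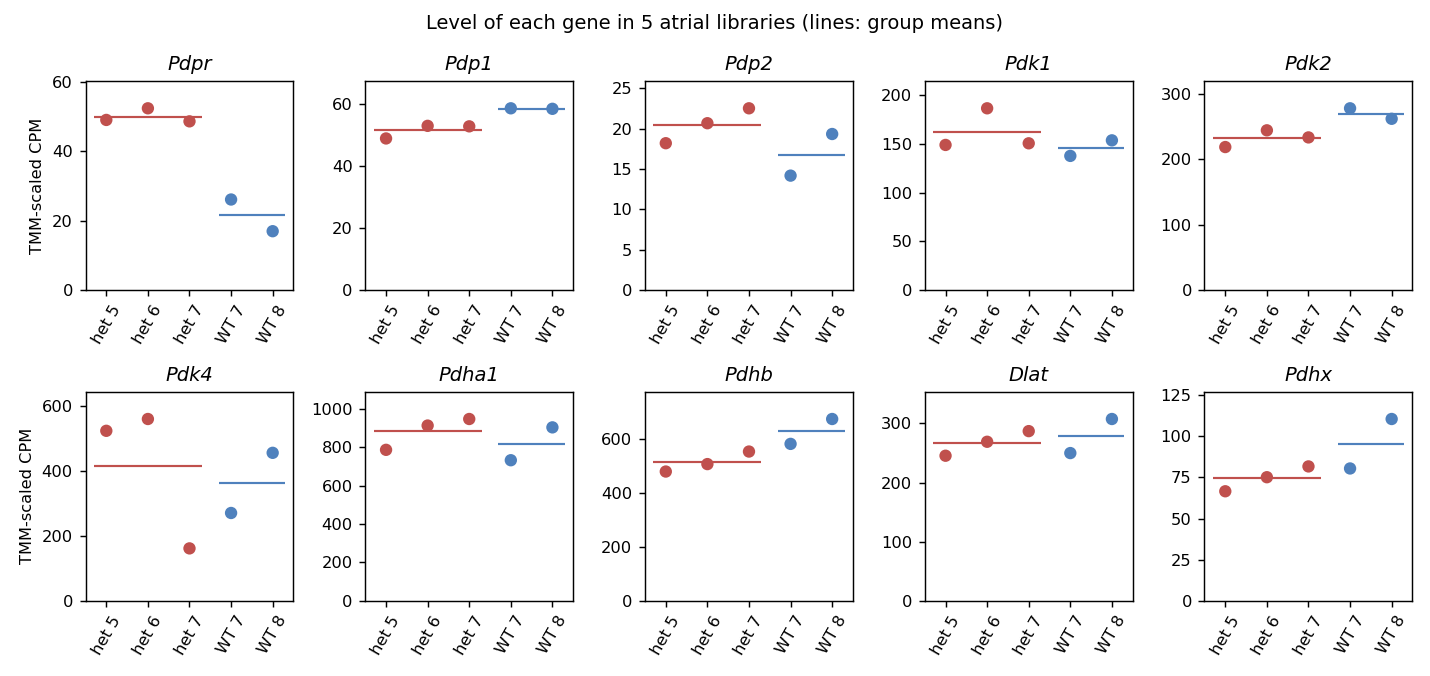
TMM-scaled library-relative counts (CPM, vertical axes from 0) of the 10 genes in each of 5 atrial libraries (horizontal axes; red, het; blue, WT), with a line at each group mean. Pdpr lies between 48.6 and 52.3 CPM in het and at 26.1 and 16.9 CPM in WT, while Pdk4 spreads from 161 to 559 CPM within het.

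In the authors' deposited table, Pdpr had a log2 fold change of 0.34 for het against WT, with limits of -0.95 and 1.62. None of the 14927 genes in that table passed an adjusted p of 0.05 (0% called). A test against a minimum fold of 1.2 is inferred there, while edgeR here tested for any difference, so the shares called are not alike. The libraries used here belong to the series, so the authors' comparison is not independent of them. The mean log2 level that the authors' deposited table gives for Pdpr was 2.83. Its mean log2 CPM over the 5 libraries was 5.14.

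A single long transcript carried Pdpr. The protein-coding ENSMUST00000039333 (4938 bases) held 98.8% to 99.6% of the Pdpr counts in each library, and the 639-base ENSMUST00000135302 held from 1.06 (WT 8) to 17.1 (het 7) expected counts. Since abundance is expressed per length, those few reads still gave the short transcript an isoform percent of 6.65, 19.6 and 18.1 in het and of 15.2 and 6.63 in WT. The ranges of the groups overlap. In TPM (a level per transcript length and library total) Pdpr stood at 10.7, 13.9 and 13.5 in het and at 6.29 and 3.35 in WT. Its highest over lowest level was 4.14 in TPM against 3.09 in CPM. Across 9265 genes with at least 2 transcripts tested, edgeR's diffSpliceDGE test of transcript usage called 3.05%. Of the 5 members it could test, Pdpr, Pdp1, Pdk2, Pdk4 and Pdhb, it called 0, with adjusted p from 0.884 (Pdk4) to 0.995 (Pdpr) in edgeR.

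The catalytic phosphatase genes did not follow Pdpr. Pdp1, the calcium-stimulated catalytic subunit, stood at 48.9, 53.0 and 52.8 CPM in het and at 58.7 and 58.5 CPM in WT. Each het library thus lay below both WT libraries, with a log2 fold change of -0.18 (SE 0.12, edgeR adjusted p = 0.375), which did not pass the test. After length and GC correction the Pdp1 value was -0.49 (SE 0.12, edgeR adjusted p = 0.110). In TPM the groups overlapped for Pdp1, at 16.2 to 20.2 in het and at 19.8 and 18.3 in WT. Pdp2, the other catalytic subunit, which is known to be less dependent on calcium, stood at 18.2, 20.7 and 22.5 CPM in het and at 14.2 and 19.3 CPM in WT. These ranges overlap, and the log2 fold change of 0.29 (SE 0.17, edgeR adjusted p = 0.312) went to -0.02 after length and GC correction. In the authors' deposited table Pdp2 had a log2 fold change of 0.61 (limits -0.01 and 1.22) and Pdp1 of -0.02.

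Pdp1 was the only member whose counts were spread over several transcripts. Its 5 transcripts, all protein-coding, differ in length from 2506 to 4201 bases. The longest, ENSMUST00000108297, held 44.4% to 58.7% of the counts, and ENSMUST00000108299 held 22.6% to 38.2%. ENSMUST00000095144 had 121 expected counts in WT 7, 27.8 and 29.5 in het 5 and 6, and 0 in het 7 and WT 8. These transcripts overlap, so RSEM divides shared reads between them by estimate. The sum over transcripts varied least of all 10 genes, and only 10.9% of genes with a mean of at least 10 CPM had a smaller ratio of highest to lowest library.

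Per length, Pdp1 was the main catalytic phosphatase gene in every library. It held 83.5%, 82.5% and 81.9% of the summed Pdp1 and Pdp2 TPM in het and 88.7% and 85.7% in WT. The Pdp2 share was therefore 16.5% to 18.1% in het and 11.3% and 14.3% in WT, without overlap. When levels were recomputed as counts over the length of the major transcript, the mean Pdp2 share was 22.1% ± 1.2 in het (SD, n = 3) and 17.0% ± 3.1 in WT (SD, n = 2). Pdp2 has the longest transcript of the 10 genes (5692 bases), and in these libraries fold changes rose with length. For each Pdp1 transcript there were 0.66, 0.77 and 0.67 Pdpr transcripts in het and 0.32 and 0.18 in WT, a ratio that takes its difference from Pdpr.

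Pdk4, the kinase gene known to respond to fasting, varied most. It stood at 523, 559 and 161 CPM in het 5, 6 and 7 and at 270 and 455 CPM in WT 7 and 8. The lowest and the highest value were both in het, so the groups overlap fully. Its het mean was 415 ± 220 CPM (SD, n = 3) and its WT mean 363 ± 131 CPM (SD, n = 2). The log2 fold change of 0.19 (SE 0.71, edgeR adjusted p = 0.907) had a 95% interval from -1.96 to 2.35, so neither a large rise nor a large fall could be told from no change. Without het 7 the value was 0.58, without WT 8 0.63, and it was -0.01 without het 5, -0.08 without het 6 and -0.13 without WT 7. The authors' deposited table gave -0.72 (limits -1.80 and 0.36). Among 9513 genes with a mean of at least 10 CPM, 99.1% had a smaller ratio of highest to lowest library than Pdk4 (3.47) and 98.8% a smaller one than Pdpr (3.09).

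Of 16 other genes known as targets of PPAR factors, 10 also had their lowest CPM in het 7, as did 15.3% of all tested genes. Of the 16, 1 had its highest CPM there. Some were lowest by little, such as Acadl (520 CPM in het 7 and 529 CPM in het 5). Genes picked as targets of the same factors are not 16 separate observations. In het 6, 10 of the 16 had their highest CPM, as did 22.2% of all tested genes. The uncoupling protein gene Ucp3 stood at 16.1, 23.4 and 4.17 CPM in het and at 18.2 and 8.65 CPM in WT. Of the 16 genes 0 were called in either direction, where 2.99% of all tested genes were called higher and 2.66% lower. The median log2 fold change of the 16 was 0.02. Fabp3, the heart fatty acid binding protein gene, had a value of -0.44 (SE 0.18) and Hadhb, of the mitochondrial trifunctional protein, of 0.03 (SE 0.17). After length and GC correction Fabp3 stood at -0.04 and Hadhb at -0.12.

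Lipid synthesis and fat cell genes also varied between libraries. Fasn, fatty acid synthase, stood at 535 CPM in het 7 and at 34.5 to 124 CPM in the other libraries. The 5 white adipocyte markers, none of them at 0 in all libraries, summed to 5.82, 12.4 and 82.5 CPM in het and to 20.7 and 60.8 CPM in WT. The highest white adipocyte sum was in het 7, though Cidec and Retn were highest in WT 8. The 5 brown adipocyte markers summed to 345, 213 and 309 CPM in het and to 551 and 379 CPM in WT. Most of each sum came from Cox7a1 and Cox8b, at 207 and 128 CPM in het 5 and at 343 and 197 CPM in WT 7. Their mean levels were 2965 and 2314 TPM, and the sum did not follow Ucp1. Ucp1, the defining gene, stood at 33.8 CPM in het 7, at 0 in het 5 and 6, and at 0.45 and 0.94 CPM in WT, while Cox7a1 and Cox8b were highest in WT 7. WT 8, with the next highest white adipocyte sum, had 455 CPM of Pdk4. The 4 ventricular cardiomyocyte markers summed to 107, 213 and 86.5 CPM in het and to 156 and 174 CPM in WT. Of these, Myl2 stood at 20.4, 77.9 and 0.999 CPM in het and at 30.5 and 35.6 CPM in WT, while Myh7 was highest in WT 7. The part of the fat cell and ventricular genes in the Pdk4 values was not tested.

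**Figure D2:**
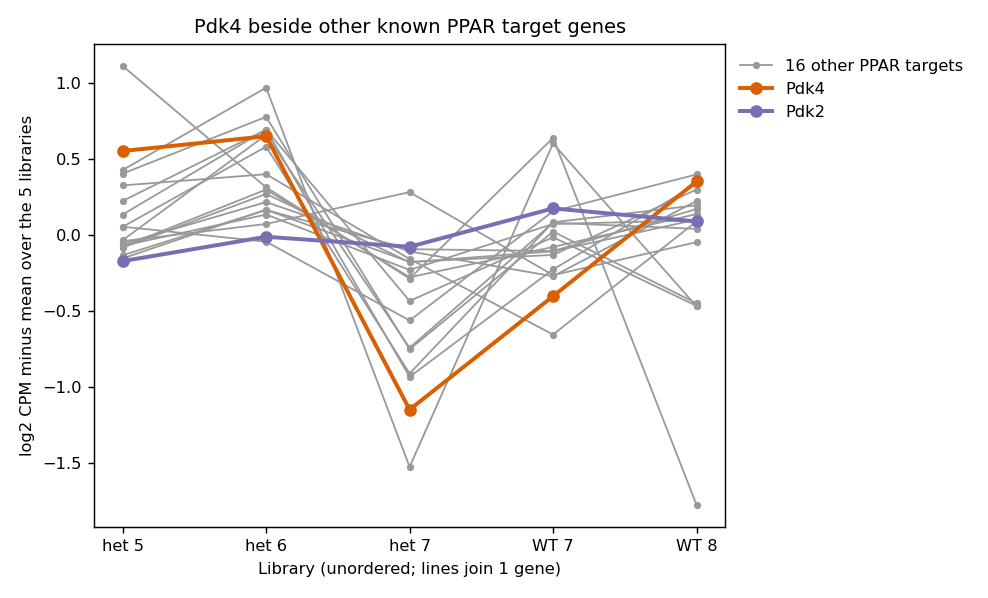
Level of Pdk4 (orange), Pdk2 (purple) and 16 other known PPAR target genes (grey) in each library, as log2 CPM minus the gene's mean over the 5 libraries; each line is 1 gene and the libraries have no order. Pdk4 and 10 of the 16 targets have their lowest value in het 7, while Pdk2 stays nearly level.

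Pdk2, the kinase gene expressed in most tissues, was steady. It stood at 219, 244 and 234 CPM in het and at 278 and 262 CPM in WT, each het library below both WT libraries. Its log2 fold change of -0.22 (SE 0.13, edgeR adjusted p = 0.323) did not pass the test and was -0.05 after length and GC correction. In TPM the groups overlapped for Pdk2, at 112 to 134 in het and at 141 and 122 in WT. Pdk1, a known target of hypoxia-inducible factor, stood at 149, 186 and 151 CPM in het and at 138 and 154 CPM in WT, with overlap. Its value was 0.15 (SE 0.14, edgeR adjusted p = 0.546), with a 95% interval from -0.16 to 0.46, and it was -0.15 after length and GC correction. Pdk3, the X-linked kinase gene, was low throughout, at 10.9 to 14.6 TPM.

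Pdk2 and Pdk4 together made up most of the kinase TPM, and which of them led depended on the library. Pdk4 held 52.4% and 50.0% of the summed TPM of the 4 kinase genes in het 5 and 6, and 23.3% in het 7. In WT it held 31.6% (WT 7) and 43.7% (WT 8). Pdk2 ran the other way, from 34.9% in het 5 to 56.4% in het 7. Pdk1 held 9.16% to 14.1% and Pdk3 3.54% to 6.10%. The kinase sum was 16.5, 17.2 and 9.62 times the Pdp1 and Pdp2 sum in het and 11.8 and 13.3 times in WT, so the groups overlap. The low ratio in het 7 came with both its low Pdk4 and the highest phosphatase sum of the 5 libraries (24.6 TPM, against 19.4 to 22.3 TPM).

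**Figure D3:**
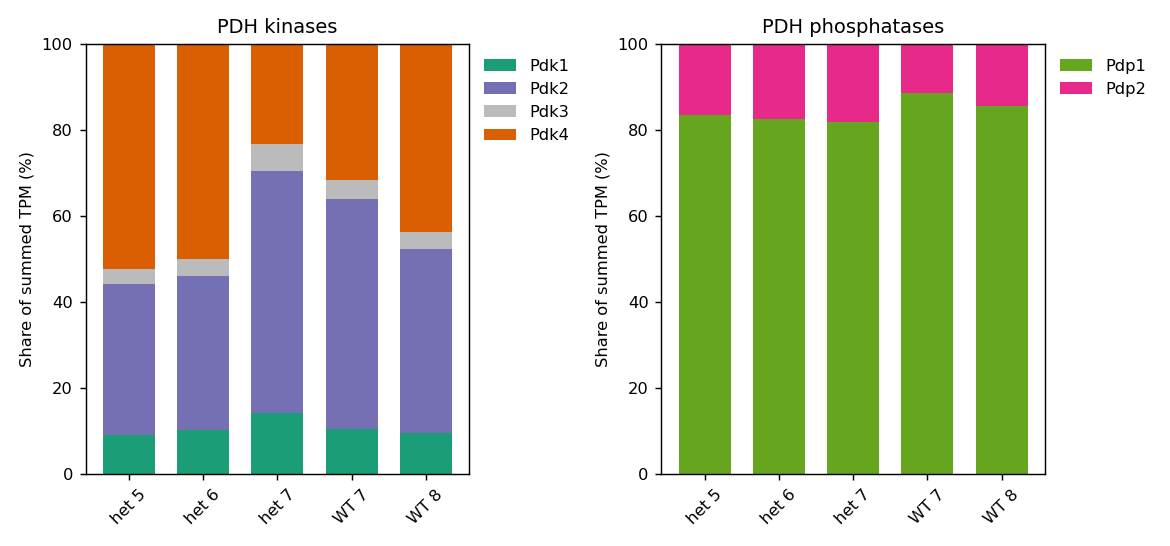
Share of the summed TPM (vertical axes, 0 to 100%) held by each pyruvate dehydrogenase kinase gene (left) and catalytic phosphatase gene (right) in each of 5 libraries. Pdk4 takes 52.4% of the kinase TPM in het 5 and 23.3% in het 7, and Pdp1 takes 81.9% to 88.7% of the phosphatase TPM.

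None of the 4 genes of the complex itself passed the test, and their spread between libraries differed. Of genes with a mean of at least 10 CPM, 19.7% had a smaller ratio of highest to lowest library than Dlat and 79.3% a smaller one than Pdhx. Pdha1, the E1 alpha chain that the kinases phosphorylate, lies on the X chromosome. It stood at 786, 913 and 947 CPM in het and at 732 and 904 CPM in WT, with overlap and with its lowest value in WT 7, the library with Y-linked expression. Its log2 fold change was 0.11 (SE 0.15, edgeR adjusted p = 0.708, 95% interval -0.22 to 0.44). It went to -0.04 after length and GC correction and to -0.03 without WT 7.

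Pdhb, the E1 beta chain, stood at 478, 506 and 552 CPM in het and at 581 and 673 CPM in WT, each het library below both WT libraries. The difference of -0.29 (SE 0.14, edgeR adjusted p = 0.218) did not pass the test and was -0.22 after length and GC correction. In TPM the groups overlapped for Pdhb, at 395, 457 and 521 in het and at 477 and 518 in WT. Dlat, the E2 core enzyme, stood at 245, 269 and 287 CPM in het and at 250 and 307 CPM in WT, with overlap. Its value was -0.06 (SE 0.14, edgeR adjusted p = 0.836), and -0.28 after length and GC correction. Pdhx, the E3-binding protein, stood at 66.6, 75.1 and 81.7 CPM in het and at 80.4 and 110 CPM in WT. The het 7 library lay just above WT 7, so the groups overlap. Its value of -0.36 (SE 0.15, edgeR adjusted p = 0.169) had an unadjusted p of 0.0361, and it ranged from -0.57 without WT 7 to -0.10 without WT 8.

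Per length, the order of levels in the 5 libraries together was Pdhb (mean 474 TPM), Pdha1 (334 TPM), Pdk2 (128 TPM), Pdk4 (124 TPM), Dlat (72.1 TPM), Pdhx (37.0 TPM), Pdk1 (31.2 TPM), Pdp1 (18.5 TPM), Pdpr (9.54 TPM) and Pdp2 (3.41 TPM). The ranges of Pdhb (395 to 521 TPM) and Pdha1 (280 to 406 TPM) overlapped, though Pdhb was higher within each library. Pdk2 and Pdk4 overlapped, as did Pdk4 and Dlat, Pdhx and Pdk1. The Pdp1 and Pdpr ranges (16.2 to 20.2 and 3.35 to 13.9 TPM) did not overlap, and those of Pdpr and Pdp2 (2.52 to 4.45 TPM) did, through WT 8 alone.

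The E1 chains form equal numbers in the enzyme, yet their transcripts were unequal. There were 0.76, 0.81 and 0.78 Pdha1 transcripts per Pdhb transcript in het and 0.59 and 0.60 in WT, without overlap. Pdha1 is the longer transcript (2834 against 1504 bases). On the log2 CPM scale the fold changes of Pdha1 and Pdhb were 0.11 and -0.29, and -0.04 and -0.22 after length and GC correction. Dlat stood at 2.07 to 2.19 times Pdhx in het and at 1.87 and 1.62 times in WT, also without overlap. Dlat is the longer of these (3961 against 2503 bases). Fold changes of Dlat and Pdhx were -0.06 and -0.36, and -0.28 and -0.46 after length and GC correction. The share of all gene pairs whose ratio is without overlap was not computed.

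Of the 9 members other than Pdpr, edgeR called 0 higher and 0 lower in het at an adjusted p under 0.05, where it called 2.99% of all tested genes higher and 2.66% lower (490 and 436 genes). That balance moved with scaling, to 795 higher and 391 lower with library size alone and to 327 and 568 with upper-quartile scaling. At an unadjusted p under 0.05 there was 1 of 9, Pdhx, against 4061 of 16412 genes. DESeq2 and limma-voom also called 0 of the 9. Their median log2 fold change was -0.06, beside -0.001 for all genes tested. Without overlap between groups in CPM 0 of the 9 were higher and 3 (Pdp1, Pdk2 and Pdhb) were lower in het. Of all tested genes 21.1% were higher and 21.1% lower without overlap in CPM. In TPM the groups overlapped for each of these 3 members. These are counts over 9 genes and were not tested against the shares of all genes.

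**Figure D4:**
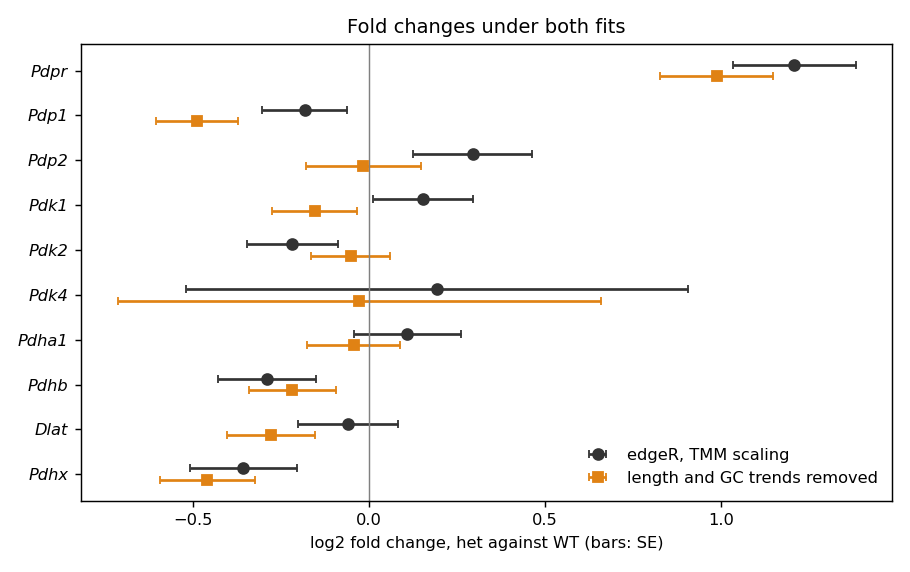
log2 fold change of each gene, het against WT (horizontal axis), with bars of 1 SE, from the edgeR fit with TMM scaling (black) and with per-library length and GC trends removed (orange). Pdpr stands at 1.21 and 0.99, and the others lie between -0.49 and 0.29 in both fits, with Pdk4 having the widest bars.

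Fold changes in these libraries depended on transcript length, which bears on how the members compare with each other. The median log2 fold change over all tested genes rose from -0.38 in the shortest decile to 0.33 in the longest. Pdhb, in the third decile (median -0.16), had -0.29, and Pdp2, in the longest (median 0.33), had 0.29. Pdpr, in the ninth decile (median 0.24), stood at 1.21. Pdhx and Pdk2, both in the fifth decile (median -0.04), stood below it at -0.36 and -0.22. After length and GC correction, edgeR called 0.0366% of tested genes (5 higher and 1 lower), and none of the 9 members other than Pdpr was among them.

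**Figure D5:**
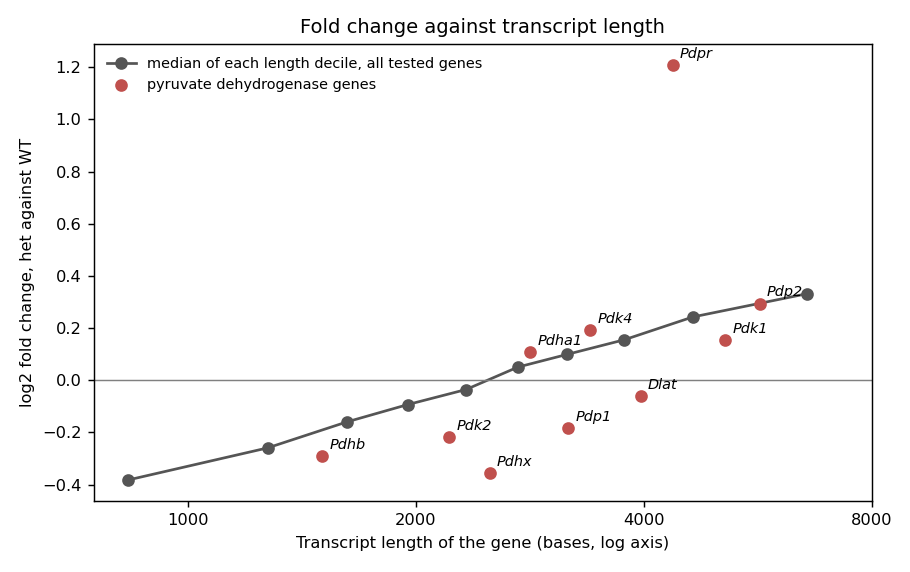
log2 fold change, het against WT (vertical axis), of the 10 genes (red) against the transcript length of the gene (horizontal axis, bases, log scale), with the median of each length decile of all 16412 tested genes (grey line). The grey line rises from -0.38 to 0.33, and Pdpr lies far above it at 1.21.

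Of 14 tested genes of pyruvate supply and use 0 were higher and 2 lower, where 2.66% of all tested genes were lower. DESeq2 called 4 lower, and limma-voom and each fit with 1 library left out called 0 lower. Without WT 8 the calls turned to 2 higher. Mpc2, a subunit of the mitochondrial pyruvate carrier, stood at 113, 101 and 112 CPM in het and at 153 and 153 CPM in WT, with no overlap. It fell by 0.50 on the log2 scale (SE 0.12, edgeR adjusted p = 0.0410). Ldhb, the heart lactate dehydrogenase chain, stood at 498, 508 and 547 CPM in het and at 703 and 787 CPM in WT and fell by 0.52 (SE 0.14, edgeR adjusted p = 0.0439). After length and GC correction neither was called, at -0.37 and -0.24. The list's median was -0.11 in both fits.

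Lipoate is the swinging arm that E2 needs, and its synthesis uses mitochondrial fatty acid synthesis and iron-sulphur proteins. Of 19 genes of lipoate and thiamine cofactors 0 were higher and 3 lower (2.66% of all tested genes were lower), and the median was -0.31. DESeq2 called 8 lower and upper-quartile scaling 5, and 0 were called without het 5, het 6 or het 7. Without WT 7 there was 1 lower, and without WT 8 there were 2. Bola3, which helps to mature the lipoate synthase, stood at 60.2 to 68.7 CPM in het and at 112 and 95.6 CPM in WT. It fell by 0.67 (SE 0.13, edgeR adjusted p = 0.0230). Glrx5, a glutaredoxin of iron-sulphur cluster transfer, stood at 49.6, 43.3 and 56.7 CPM in het and at 75.7 and 84.5 CPM in WT. It fell by 0.68 (SE 0.14, edgeR adjusted p = 0.0270), and kept -0.68 after length and GC correction. Hsd17b8, of mitochondrial fatty acid synthesis, fell by 0.69 (SE 0.14, edgeR adjusted p = 0.0260) and stood at -0.18 with those trends removed. None of the 3 was then called, and the list's median went to -0.16. Lias, the lipoate synthase itself, stood at 36.1 to 40.9 CPM in het and at 40.0 and 48.7 CPM in WT and was not called.

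Related complexes share E3 and the lipoate arm. Of 9 genes of the 2-oxoglutarate and branched-chain dehydrogenases and their kinase and phosphatase, 0 were called higher and Bckdha was called lower. Of all tested genes, 2.99% were called higher and 2.66% lower. Bckdha, the E1 alpha chain of the branched-chain complex, stood at 71.3, 86.9 and 79.9 CPM in het and at 137 and 106 CPM in WT. It fell by 0.62 (SE 0.14, edgeR adjusted p = 0.0349), and its value was -0.38, not called, after length and GC correction. Dld, the E3 enzyme that all of these complexes use, stood at 338 to 377 CPM in het and at 275 and 336 CPM in WT. Its value was 0.24 (SE 0.14, edgeR adjusted p = 0.328). Of 3 sirtuin genes that act on the complex edgeR called 0, with Sirt3 at -0.47 (SE 0.13, edgeR adjusted p = 0.0560) and Sirt5 at -0.24 (SE 0.15). DESeq2 (adjusted p = 0.0324) and edgeR with upper-quartile scaling (adjusted p = 0.0455) called Sirt3 lower.

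Among 14 transcription factor genes known to act on Pdk genes, 2 were higher and 0 lower, where 2.99% of all tested genes were higher. The count of higher genes was 4 in DESeq2, with library size alone and without WT 8, and 5 with every gene that had a count. It was 1 without het 6 or WT 7, and 0 without het 5 or het 7. They were Ppara (1.31, SE 0.18) and its coactivator Ppargc1a (0.72, SE 0.14), with edgeR adjusted p of 0.0229 and 0.0252. After length and GC correction Ppara stood at 1.24 (edgeR adjusted p = 0.0466), and Ppargc1a at 0.26, not called. Ppara lost its call without het 5 (edgeR adjusted p = 0.0563) or het 7 (edgeR adjusted p = 0.0615), and in limma-trend on log2(TPM + 1) (adjusted p = 0.0655). Of 10 other targets of hypoxia-inducible factor Adm was lower (-0.61, SE 0.15, edgeR adjusted p = 0.0397) and 0 were higher, with a median of -0.03. Of all tested genes, 2.66% were called lower. After length and GC correction Adm stood at -0.42, not called. Calls in all of these lists rest on few libraries, since edgeR called 0, 5 and 0 genes higher and 1, 6 and 0 lower in the whole table without het 5, het 6 and het 7. Without WT 7 it called 260 and 134, and without WT 8 588 and 290.

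Among the 5 genes whose profile over the libraries was most like that of Pdpr were Nr2c2, Abca9, Vsig4 and Fam120c. Likeness was the root mean square difference of log2 CPM, each gene centred on its own mean, among 9310 named genes with a mean of at least 10 CPM. Nr2c2, a nuclear receptor gene, differed from Pdpr by 0.072. It stood at 34.7, 39.8 and 32.2 CPM in het and at 19.6 and 11.7 CPM in WT. Over 5 libraries that fall into 2 groups such likeness is a description of levels only, and with log2(TPM + 1) only 2 of the 5 genes stayed among the nearest 5. No other member was close: 3149 genes were nearer to Pdpr than Pdp2, and 9064 were nearer than Pdk4.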

How the data were processed

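Snap-frozen atria were sequenced as stranded polyA libraries, per the labels' protocols. Per the submitters' processing notes, which give no versions, the tools were STAR, RSEM, Trim Galore, SAMtools, FastQC, MultiQC, edgeR and limma, and the build was GRCm39. Expected counts per gene and transcript were estimated by the authors with RSEM, per the file headers, and are not normalized. The deposited TPM values are scaled by the authors to length and library total, and the isoform percent is the authors' share of a gene's abundance. The authors' deposited comparison holds log2 fold changes, scores (moderated t) and p-values. Many scores are exactly 0, so a minimum-fold test is inferred from the values.

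Expected counts were rounded and tested with edgeR (quasi-likelihood, TMM, default filter, Benjamini-Hochberg adjusted p under 0.05), on 3 het and 2 WT libraries grouped by title. SE is the absolute log2 fold change over the square root of F. Transcript usage was tested with edgeR's diffSpliceDGE, which made more false calls than aimed at on simulated data. For the length and GC correction, smooth trends fitted in each library (mgcv) served as offsets, with GC from GENCODE M21 transcripts (GRCm38) for 97.9% of tested genes. Other alternatives were DESeq2, limma-voom, limma-trend on log2(TPM + 0.1) or log2(TPM + 1), other filters and scalings, and each library left out. Their use on the pathway lists was added after seeing the data. With 10 splits of 3 against 2, no exact test of a single value can pass 0.05. The members, lists and tests were chosen with earlier results of these data known. Named were the members, up to 4 called genes of each list by smallest p (or up to 2 of the highest TPM where none was called), the 5 profiles nearest to Pdpr, and single markers, though not every gene so chosen is reported here. Ucp3, Acadl, Lias, Fasn, Nppa, Myl4, Ryr2, Ucp1, Cidec, Retn, Cox7a1, Cox8b, Myl2, Myh7, Adgre1, Cd163, Lum, Dcn, Col1a1 and Tcf21 were named after their values were seen. Versions were 4.0.16 for edgeR, 1.42.0 for DESeq2, 3.58.1 for limma, 1.9.3 for mgcv and 4.3.3 for R.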

Additional observations from a re-analysis of the deposited data

How the results depend on the processing

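The count of called genes depended on many of the choices, though not on all. Against 490 higher and 436 lower genes, DESeq2 called 867 and 780, limma-voom 237 and 222, and library size alone 795 and 391. Upper-quartile scaling called 327 and 568, RLE scaling 492 and 457, and a filter at a mean of at least 1 CPM 344 and 332. Every gene with a count gave 1304 and 907, the length correction 7 and 9, the length and GC correction 5 and 1, log2(TPM + 1) 4 and 4, and log2(TPM + 0.1) 15 and 7. With 1 library left out the counts ran from 0 to 588 higher and from 0 to 290 lower. Genes with changed transcript usage numbered 283, and 179 to 969 with 1 library left out. Of the 9 members other than Pdpr, 0 were called under each of these alternatives. Pdpr had values from 0.95 to 1.56 in the 16 alternatives. It was chosen as higher in het in these same libraries, so its direction there is a description and no support. Pdp1, Pdk2, Pdhb and Pdhx kept a value below 0 in all 16. Signs turned for Pdp2 (-0.0091 after the length correction, -0.017 after the length and GC correction) and Pdk1 (-0.11 and -0.15). After the length and GC correction Pdk4 stood at -0.028, Pdha1 at -0.044 and Hadhb at -0.12. With 1 library left out, values ran from -0.13 (without WT 7) to 0.63 (without WT 8) for Pdk4, with -0.0090 without het 5 and -0.082 without het 6. They ran from -0.032 (without WT 7) to 0.28 (without WT 8) for Pdha1, from -0.20 to 0.11 for Dlat (4.9e-04 without het 5), and from -0.20 to 0.31 for Hadhb (-0.078 without het 6). With log2(TPM + 1) and log2(TPM + 0.1), Dlat turned to 0.099 and 0.10 and Sirt5 to 0.098 and 0.10. Upper-quartile scaling turned Hadhb to -0.015. The causes were not tested. Mpc2, Ldhb, Bola3, Hsd17b8, Glrx5, Bckdha, Adm, Ppara and Ppargc1a kept their direction in all 16 alternatives. For marker genes only the length and GC correction is given here, and for Lias none of the 16. No paired analysis was possible because the groups share only replicate number 7.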

Other observations

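Pdpr differed from the other members in how its level compares with the series as a whole. The mean log2 level in the authors' deposited table lay below the mean log2 CPM of the 5 libraries by a median of 0.37 over 14700 shared genes. For Pdpr the difference was -2.31, and only 0.272% of genes had a more negative one. The other members ranged from -1.13 (Pdk2) to -0.30 (Pdp1). Of the genes with a profile like that of Pdpr, Fam120c stood at -2.11, while Vsig4 stood at 0.49. The unit of the authors' mean and the libraries behind it are not given in the sources used here, so the difference can hold scaling as well as level. The animals outside batch 2 were not analysed here, and the cause was not tested.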
